A study of Mus musculus with 3 samples.

Results

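The proteasome subunit genes were followed through the formation of endoderm from mouse embryonic stem (ES) cells. Members were all probes of the signal table whose gene symbol began with Psma, Psmb, Psmc, Psmd or Psme and a number, which gave 60 of 25697 probes and 41 of 17836 genes. The immunoproteasome genes Psmb8, Psmb9, Psmb10, Psme1 and Psme2 were set beside the other 36. One gene that the symbols pulled in, Psmc3ip, codes for a meiotic recombination protein and is no subunit, and Psme2b is an annotated copy of Psme2.

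RNA was measured on Illumina bead arrays in ES cells of a 129 background with a Sox17-GFP reporter. GFP in these cells reports Sox17, a transcription factor of endoderm. The groups were Sox17-GFP(+) cells after recombinant human Activin A at 50 ng/ml, Sox17-GFP(+) cells after recombinant mouse Nodal at 1000 ng/ml, and undifferentiated cells of the same reporter line, with 2 arrays each in the signal table, although the sample descriptions give replicate numbers that differ between groups. The source names give day 7 of differentiation, and the protocol gives 6 to 8 days. Undifferentiated cells were grown with LIF on gelatin and mouse embryonic fibroblast feeders. Untreated cells of that day were not analysed here, so treatment, culture time, selection for GFP and feeders cannot be told apart in comparisons with the undifferentiated cells. Protein, species of origin and dose differ together between Activin and Nodal. The sources used here do not say whether a group's arrays stem from separate cultures, so p-values measure only the spread between arrays, which may be technical.

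The proteasome is the barrel-shaped protease that degrades ubiquitin-tagged proteins. Its 20S core is built of alpha and beta rings, and the beta rings hold the active sites. The 19S regulatory particle caps the core. Its ATPase subunits (Psmc) unfold substrates, and its non-ATPase subunits (Psmd) bind, hold and de-ubiquitinate them. In the immunoproteasome, Psmb8, Psmb9 and Psmb10 take the places of the catalytic subunits Psmb5, Psmb6 and Psmb7, and the 11S activator of Psme1 and Psme2 can cap the core in place of 19S. These 5 genes are known as targets of interferon-gamma and for making peptides for MHC class I molecules. A rise of the 11S activator and of immunoproteasome subunits is known from earlier work on differentiating mouse ES cells.

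Promoters are shown for the 11S activator genes and the Psme2 copy, for the immunoproteasome subunit Psmb8 and for the chaperone Psmd5, because the results below turn on the rise of these activator genes and on the fall of Psmd5. Each window runs from 250 bases before to 50 bases after the annotated gene start in RefSeq, build GRCm38.p6, and was found for 36 of the 41 members, some with more than 1 annotated start (39 windows). Psme1 (chr14:55578244-55578543, plus strand) and Psme2 (chr14:55591052-55591351, minus strand) lie close together on chromosome 14. Psme2b lies on chromosome 11 (chr11:48946361-48946660, minus strand), Psmb8 on chromosome 17 (chr17:34197945-34198244, plus strand) and Psmd5 on chromosome 2 (chr2:34870913-34871212, minus strand). Capitals mark matches to the motifs described next.
Psme1: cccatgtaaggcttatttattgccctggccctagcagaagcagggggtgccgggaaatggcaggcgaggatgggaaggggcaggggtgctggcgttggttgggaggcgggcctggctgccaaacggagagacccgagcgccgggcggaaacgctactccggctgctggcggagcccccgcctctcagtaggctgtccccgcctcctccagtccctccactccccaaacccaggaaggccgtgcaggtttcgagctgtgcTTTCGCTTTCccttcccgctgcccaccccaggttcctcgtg
Psme2: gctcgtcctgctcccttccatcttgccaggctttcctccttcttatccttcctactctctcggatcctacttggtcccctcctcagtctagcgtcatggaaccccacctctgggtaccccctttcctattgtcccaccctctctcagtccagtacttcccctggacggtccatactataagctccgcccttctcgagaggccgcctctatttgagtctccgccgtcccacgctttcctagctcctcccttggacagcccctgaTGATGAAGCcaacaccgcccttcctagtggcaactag
Psme2b: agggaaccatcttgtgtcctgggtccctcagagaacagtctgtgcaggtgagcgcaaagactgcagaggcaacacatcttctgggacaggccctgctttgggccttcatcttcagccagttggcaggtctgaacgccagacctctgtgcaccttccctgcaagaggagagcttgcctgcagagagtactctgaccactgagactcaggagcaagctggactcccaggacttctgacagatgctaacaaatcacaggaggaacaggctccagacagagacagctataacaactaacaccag
Psmb8: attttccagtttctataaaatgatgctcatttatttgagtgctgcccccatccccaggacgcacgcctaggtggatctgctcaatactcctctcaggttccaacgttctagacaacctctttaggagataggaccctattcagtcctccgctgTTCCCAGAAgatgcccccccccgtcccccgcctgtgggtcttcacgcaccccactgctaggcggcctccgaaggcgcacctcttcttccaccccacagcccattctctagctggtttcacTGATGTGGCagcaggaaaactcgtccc
Psmd5: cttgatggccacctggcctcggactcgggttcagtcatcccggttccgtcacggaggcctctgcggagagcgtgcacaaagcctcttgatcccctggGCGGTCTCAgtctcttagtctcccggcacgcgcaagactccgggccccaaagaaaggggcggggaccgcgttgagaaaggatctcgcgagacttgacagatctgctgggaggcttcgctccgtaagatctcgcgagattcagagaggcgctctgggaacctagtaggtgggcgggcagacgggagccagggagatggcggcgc

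Both strands were searched for 4 motifs. The capitals in Psme1 are the core of an interferon-stimulated response element, on the minus strand, which 4 of 39 member windows (10.3%) and 3.43% of all 32817 promoter windows held. The other members with that element were Psmb3, Psmd4 and Psmd9. The first capitals in Psmb8 are a gamma-activated site (TTCNNNGAA), held by 2 member windows (5.13%) and 8.29% of all windows. The other member window with this site was that of Psmd2. Of 6 immunoproteasome windows, 1 held the interferon-stimulated element and 1 the gamma-activated site. The remaining capitals in Psme2, Psmb8 and Psmd5 match the antioxidant response element core (TGANNNNGC), held by 59.0% of member windows and 41.3% of all windows. The NF-Y box (CCAAT), in none of these 5 windows, was held by 35.9% of member windows and 37.4% of all windows. The windows of Psme2 and its copy Psme2b shared no run longer than 8 bases. These matches describe letters in a window, not binding.

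Of the 60 member probes, 53 were detected on every array, 1 on some and 6 on none. The arrays were alike in detection, with 49.34% to 50.56% of all probes above background at a detection p under 0.05. The upper quartile of the raw signal was 228.6 to 251.2 for Activin and Nodal, against 202.8 and 185 for undifferentiated cells. The highest member signal was 14500, while the brightest probe of each array reached 25640 to 27050. Levels below are log2 signals after background correction and quantile normalization, a gene stands for its brightest kept probe, and levels are compared between groups only, never between genes. A gene passed when its adjusted p (limma, Benjamini-Hochberg over 10222 genes) was under 0.05.

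The labels of the groups were checked first. Sox17 had log2 levels of 11.83 and 11.89 with Activin, 11.90 and 11.79 with Nodal, against 6.57 and 6.45 in undifferentiated cells. The pluripotency factor Pou5f1 stood at 6.72 and 7.11 with Activin, 7.59 and 7.48 with Nodal, against 12.85 and 12.69 in undifferentiated cells, and Nanog at 7.92 and 7.59 with Activin, 7.79 and 7.94 with Nodal, against 12.55 and 12.60 in undifferentiated cells. Sox17 was thus higher, and both pluripotency factors lower, on every treated array. The series text calls the untreated sample SOX17-GFP (+) while its title calls it undifferentiated, and the title was followed.

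Markers of other cells moved with both comparisons against undifferentiated cells. Of 20 macrophage markers, 4 were detected on each Activin array and 5 on each Nodal array, against 14 on each undifferentiated array. The summed raw signal of the list was 1250 and 1221 with Activin, 1246 and 1182 with Nodal, against 13470 and 13660 in undifferentiated cells. Csf1r, Ptprc, Fcer1g, Aif1, Itgam and Spi1 were detected on none. Most of the undifferentiated sum came from Laptm5 (7005 and 6918), Lyz1 (3788 and 4095) and Lyz2 (1058 and 1076). Fibroblast feeder markers were detected for 10 of 19 genes on each treated array and for 14 on the undifferentiated arrays, with summed signals of 7372 and 7056 with Activin, 6320 and 5581 with Nodal, against 8907 and 7722 in undifferentiated cells. Of the 15 feeder markers tested, 5 were higher and 9 lower after Activin and 4 higher and 11 lower after Nodal, with Ccn1, Pdgfra and Twist1 the highest in both. The part of macrophages and feeders in the results below, those on the immunoproteasome included, was not tested.

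In Activin-derived cells, 5 members were higher and 17 lower than in undifferentiated cells, and 17 of the 39 tested did not pass. In Nodal-derived cells, 4 were higher, 18 lower and 17 did not pass. That is 56.4% of members in each comparison. Of all genes, 73.7% passed after Activin (36.5% higher, 37.2% lower) and 74.3% after Nodal (36.8% higher, 37.4% lower). The arrays of the 2 groups did not overlap for 30 members after Activin and 33 after Nodal, against 85.4% and 86.7% of all genes. Without between-array normalization, an alternative chosen after seeing the data, the split after Activin was 7 higher and 7 lower. The median member change was -0.17 after Activin and -0.19 after Nodal on the log2 scale, against -0.02 and -0.01 over all genes, and the median size of change was 0.28 and 0.34 for members and 0.55 and 0.57 for all genes. Both comparisons use the same undifferentiated arrays. Of the members, 4 were higher in both, 17 lower in both, and none passed in opposite directions. The lower genes include Psmc3ip, the one that is no subunit, which fell by 0.38 after Activin and by 0.56 after Nodal. Psmb1 passed as higher after Activin and not after Nodal, with a difference between the treatments that did not pass (adjusted p 0.665). Psmb10 passed as lower after Nodal and not after Activin, and its difference is given below. In bulk samples such as these, fewer cells of a type and less RNA per cell cannot be told apart.

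**Figure D1:**
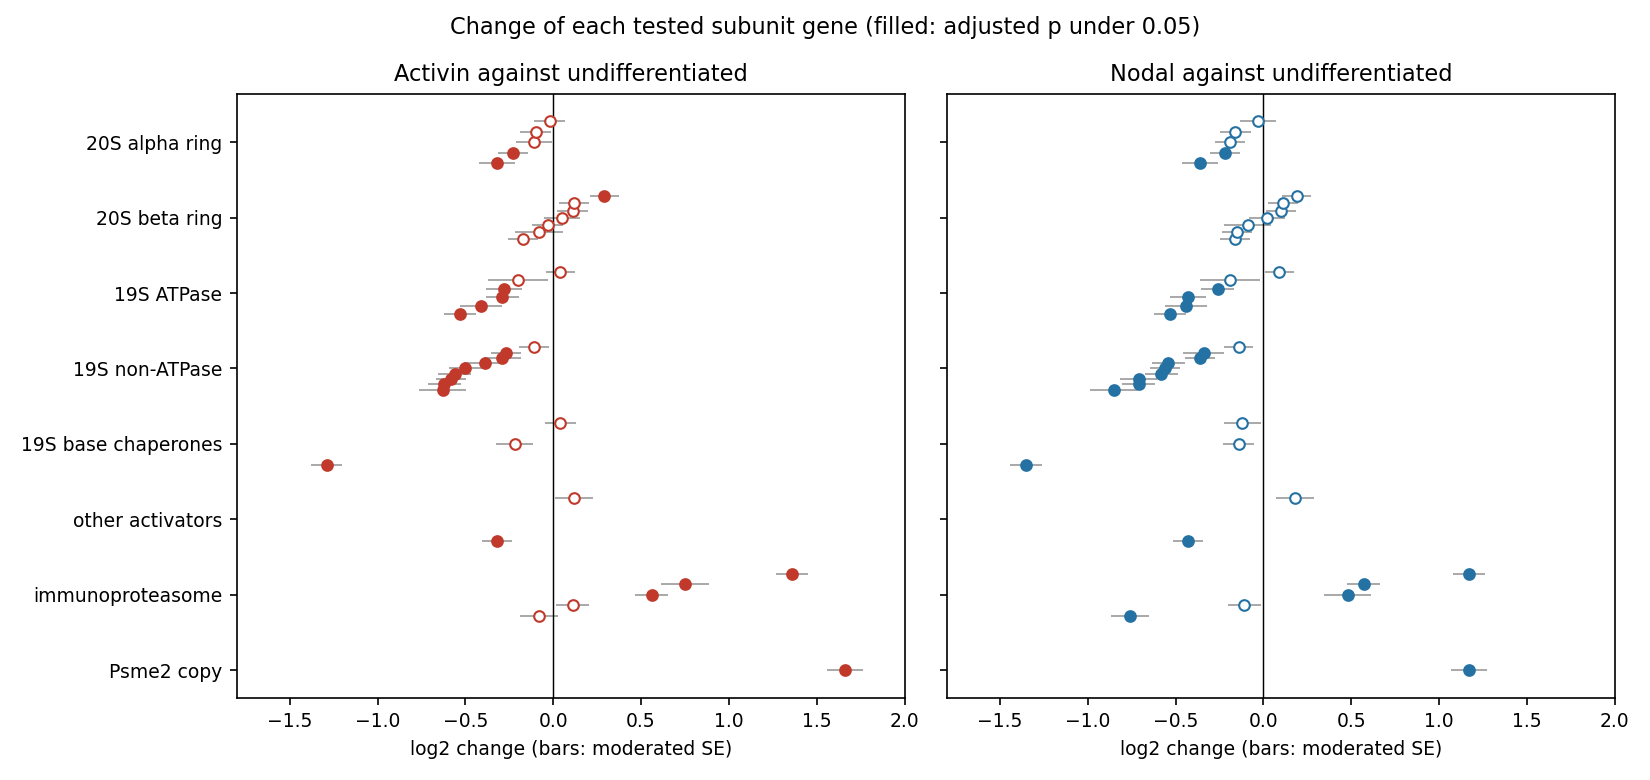
Log2 change of each tested subunit gene (points; bars are the moderated standard error), by subcomplex, in Activin-derived (left) and Nodal-derived cells (right) against undifferentiated cells, 2 arrays per group; filled points passed at an adjusted p under 0.05. The 19S rows lie mostly left of 0, the 20S rows close to 0, Psmd5 is the leftmost point (-1.29 and -1.35), and Psme1 and the Psme2 copy are the points farthest to the right.

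The 20S core moved little. Of its 15 alpha and beta ring genes, 12 were tested, and their median change was -0.06 after Activin and -0.12 after Nodal. In the alpha ring, which gates the entrance of the core, Psma3 fell by 0.23 after Activin and by 0.22 after Nodal, and Psma5 fell by 0.32 after Activin and by 0.36 after Nodal. The Psma3 call was lost in both comparisons with median scaling, cyclic loess and no between-array normalization. Psma2, Psma4 and Psma7 had changes between -0.19 and -0.02 that did not pass. The only probes of Psma1 and Psma6 were not above background on any array, so these genes had no test. The testis subunit Psma8 had no probe, nor did the thymus subunit Psmb11.

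In the constitutive beta ring, 1 of 7 genes passed after Activin and 0 after Nodal in limma's test, where 1 had an unadjusted p under 0.05. That gene was Psmb1, a structural beta subunit, at 12.08 and 12.12 with Activin, 11.99 and 12.02 with Nodal, against 11.84 and 11.78 in undifferentiated cells. Its change was 0.29 after Activin (SE 0.0828, adjusted p 0.0106) and 0.19 after Nodal (adjusted p 0.059). Every treated array lay above both undifferentiated ones, and the call after Activin was lost with median scaling (0.23, adjusted p 0.0722).

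The 3 constitutive catalytic subunits did not pass in either comparison. Psmb5, the chymotrypsin-like subunit, had log2 levels of 9.55 and 9.72 with Activin, 9.52 and 9.75 with Nodal, against 9.54 and 9.90 in undifferentiated cells. Psmb6, the caspase-like subunit, had 12.90 and 12.79 with Activin, 12.88 and 12.80 with Nodal, against 12.74 and 12.73 in undifferentiated cells. Psmb7, the trypsin-like subunit, had 12.37 and 12.47 with Activin, 12.43 and 12.37 with Nodal, against 12.28 and 12.32 in undifferentiated cells. The Psmb5 arrays overlapped between all groups, while those of Psmb6 and Psmb7 lay slightly above the undifferentiated arrays in both treated groups. Their changes lay between -0.09 and 0.12, and the 95% intervals spanned -0.39 to 0.22 for Psmb5, -0.10 to 0.31 for Psmb6 and -0.09 to 0.32 for Psmb7 over both comparisons. For Psmb7 this holds for the brightest probe only. Its other probes changed by -0.01 and -0.15 after Activin and by -0.04 and -0.37 after Nodal. The other beta genes, Psmb2, Psmb3 and Psmb4, had changes of -0.17 to 0.05. The number of 20S genes that passed was unsteady: it was 3 after Activin and 2 after Nodal, but 1 in each with median scaling or without between-array normalization. After Activin it was 1 without Activin replicate 2 or undifferentiated replicate 1 and 0 without undifferentiated replicate 2. After Nodal it was 1 without Nodal replicate 1 or either undifferentiated replicate and 0 without Nodal replicate 2.

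Most tested genes of the 19S regulatory particle were lower in both treated populations. Of its 15 tested ATPase and non-ATPase genes, 12 were lower after Activin and 12 after Nodal, and 0 were higher in limma's test, at an unadjusted p under 0.05 as well. The median change was -0.39 after Activin and -0.44 after Nodal. Over all genes 37.2% were lower after Activin and 37.4% after Nodal. The changes were modest: the lowest was -0.63 after Activin and -0.85 after Nodal, both for Psmd2. Psmd3 and Psmd6, which also belong to the particle, had no probe, and the 19S subunit Sem1, not counted here because of its symbol, was higher in both comparisons.

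Among the 6 ATPase genes that form the unfolding ring, 4 were lower in each comparison. Psmc4 had the largest fall of these, with levels of 12.13 and 12.27 with Activin, 12.24 and 12.15 with Nodal, against 12.73 on both arrays in undifferentiated cells. It fell by 0.53 after Activin and by 0.53 after Nodal, and no treated array reached an undifferentiated one. Psmc1 fell by 0.41 after Activin and by 0.44 after Nodal, Psmc2 fell by 0.29 after Activin and by 0.26 after Nodal, and Psmc5 fell by 0.28 after Activin and by 0.43 after Nodal. Psmc3 had changes of 0.04 after Activin and 0.09 after Nodal, and Psmc6 of -0.20 and -0.19, none of which passed. Psmc6 was dim, with arrays that overlapped between groups.

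Of the 9 non-ATPase genes, 8 were lower in each comparison. Psmd2, one of the large scaffold subunits, had levels of 6.63 and 6.97 with Activin, 6.73 and 6.43 with Nodal, against 7.43 and 7.42 in undifferentiated cells. Its probe was dim, with raw signals of 114.8 to 180.4, and its second probe was dimmer (65.22 to 100.2). Psmd1, the other large scaffold subunit, had 8.21 and 8.12 with Activin, 8.13 and 8.30 with Nodal, against 8.79 on both arrays in undifferentiated cells. All treated arrays of these genes lay below both undifferentiated ones, with SE 0.134 for Psmd2 and 0.0928 for Psmd1. Psmd2 fell by 0.63 after Activin and by 0.85 after Nodal (adjusted p 0.00199 and 0.000282), and Psmd1 fell by 0.62 after Activin and by 0.58 after Nodal (adjusted p 0.000191 and 0.000314). Without between-array normalization the calls of Psmd2 after Activin (-0.30, adjusted p 0.0585) and of Psmd1 after Nodal (-0.28, adjusted p 0.0802) were lost.

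The lid subunits measured under a Psmd symbol were lower too, some of them depending on how arrays were scaled. Psmd7, which pairs with the de-ubiquitinase Psmd14, had levels of 11.80 and 11.81 with Activin, 11.78 and 11.87 with Nodal, against 12.41 and 12.36 in undifferentiated cells. Psmd12, a structural lid subunit, had 11.29 and 11.45 with Activin, 11.13 and 11.18 with Nodal, against 11.93 and 11.80 in undifferentiated cells. Neither gene's treated arrays reached the undifferentiated ones. Psmd7 fell by 0.58 after Activin and 0.56 after Nodal (SE 0.0844, adjusted p 0.00017 and 0.000207), and Psmd12 fell by 0.50 after Activin and by 0.71 after Nodal (SE 0.0948, adjusted p 0.000991 and 8.87e-05). Psmd11, whose product stabilizes the joint of core and cap and is known in human ES cells for high levels, fell by 0.56 after Activin and by 0.54 after Nodal. The de-ubiquitinase Psmd14 fell by 0.39 after Activin and by 0.34 after Nodal. Of the lid subunits Psmd13 and Psmd8, Psmd13 fell by 0.27 after Activin and by 0.36 after Nodal, and Psmd8 fell by 0.29 after Activin and by 0.71 after Nodal. The ubiquitin receptor Psmd4 had changes of -0.11 after Activin and -0.14 after Nodal, which did not pass.

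**Figure D2:**
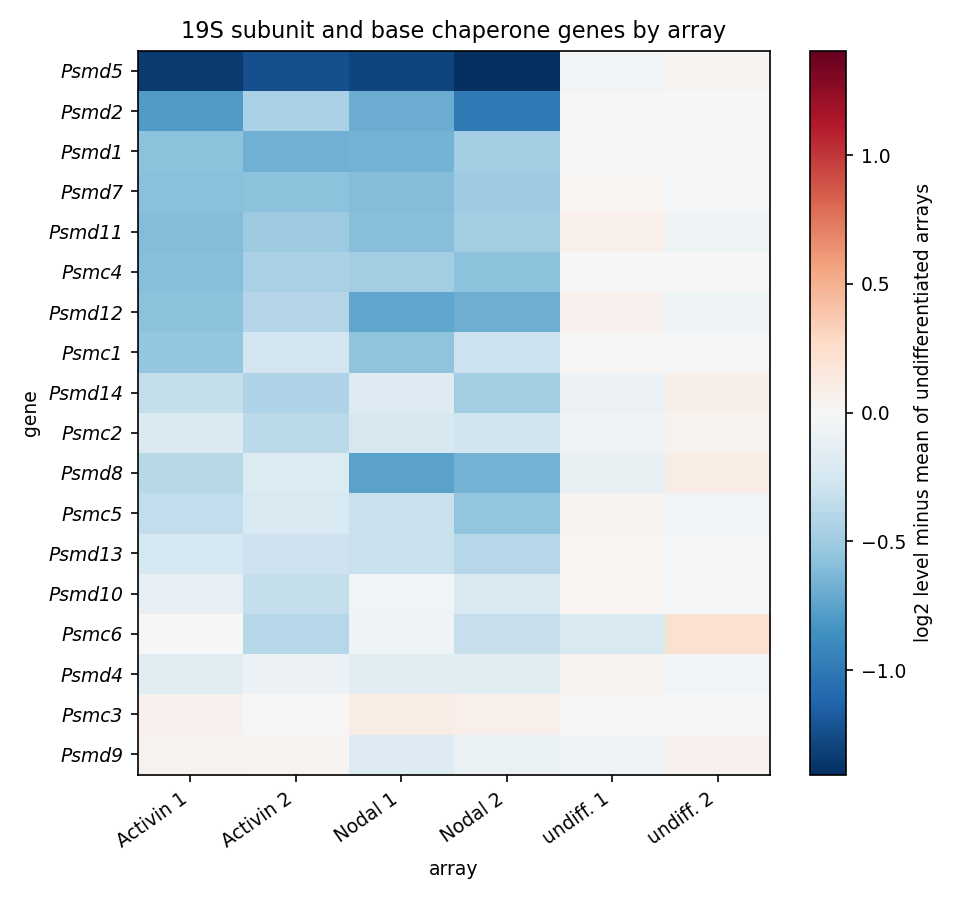
Log2 level of each 19S subunit and base chaperone gene (rows) on each array (columns), minus the mean of the 2 undifferentiated arrays; blue is lower and red higher. The 4 treated arrays are blue for most rows, deepest for Psmd5, while Psmc3 and Psmd4 stay near 0.

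The 19S count depended on how arrays were scaled. The call of Psmd8 after Activin was lost with median scaling (-0.10, adjusted p 0.409), with cyclic loess (-0.23, adjusted p 0.0787) and without between-array normalization (0.00, adjusted p 0.98). Without that normalization Psmd13 (adjusted p 0.126), Psmd14, Psmc2, Psmc5 and Psmd2 also lost their call after Activin, and Psmc2, Psmd1, Psmd11 and Psmd14 after Nodal. There 6 genes were lower after Activin and 8 after Nodal and 0 higher, and the 19S median lay 0.46 and 0.53 below that of all genes, which itself moved to 0.179 and 0.19. When a fold of at least 1.5 was required in the test, 0 of the 15 passed in limma, although 12 passed at an adjusted p under 0.05 without that demand.

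The chaperone Psmd5 showed the largest fall of any member. It binds the ATPase base during assembly and is not part of the finished particle. Its levels were 7.33 and 7.44 with Activin, 7.38 and 7.27 with Nodal, against 8.64 and 8.71 in undifferentiated cells, with no overlap. The change was -1.29 after Activin (SE 0.0904, adjusted p 9.1e-07) and -1.35 after Nodal (adjusted p 6.3e-07), which is 2.44-fold and 2.55-fold lower. The other base chaperones, Psmd9 and Psmd10, had changes of 0.04 and -0.22 after Activin and -0.14 and -0.12 after Nodal, none of which passed. Psmd9 passed as higher after Activin with median scaling (0.28, adjusted p 0.0314) and without between-array normalization (0.38, adjusted p 0.0169).

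Outside the assembly chaperones named Psmd, the genes for core assembly factors gave a mixed picture. Of the pair that starts the alpha ring, Psmg1 fell by 0.89 after Activin and by 0.95 after Nodal, and Psmg2 fell by 0.45 after Activin and by 0.60 after Nodal. Psmg3 and the maturation factor Pomp had changes between -0.20 and 0.16 that did not pass. So 2 of 4 tested assembly genes were lower in each comparison and 0 higher in limma's test, at an unadjusted p under 0.05 as well. Of all genes, 37.2% were lower after Activin and 37.4% after Nodal, a share that so few genes cannot be set apart from.

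Of the other activators, Psme3 was lower in both comparisons and Psme4 did not pass. Psme3, whose product forms the nuclear activator ring, had levels of 9.74 and 9.82 with Activin, 9.71 and 9.64 with Nodal, against 10.13 and 10.06 in undifferentiated cells, all treated arrays being lower. It fell by 0.32 after Activin and by 0.43 after Nodal (adjusted p 0.00799 and 0.00145). Psme4, the large activator known for acetylated histone breakdown, had 11.76 and 11.73 with Activin, 11.94 and 11.65 with Nodal, against 11.57 and 11.66 in undifferentiated cells, and its changes of 0.12 after Activin and 0.18 after Nodal did not pass. The Psme3 call after Activin was lost with median scaling (-0.22, adjusted p 0.0976), without between-array normalization (-0.12) and without undifferentiated replicate 1 (adjusted p 0.0501). After Nodal it was lost without between-array normalization (-0.20, adjusted p 0.216), and the Psme4 change passed without Nodal replicate 2 (0.33, adjusted p 0.0314).

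The immunoproteasome genes went the other way from 19S, but not all of them. After Activin, Psmb8, Psme1 and Psme2 were higher and 0 of the 5 lower in limma's test, also at an unadjusted p under 0.05, with Psmb9 and Psmb10 not passing. After Nodal the same 3 were higher, Psmb10 was lower and Psmb9 did not pass. Psmb8 met the detection filter only through treated arrays, so its place among the higher genes was partly set by the filter. The share of all genes that was higher was 36.5% after Activin and 36.8% after Nodal.

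The 11S activator genes rose in both populations. Psme1 had log2 levels of 11.30 and 11.29 with Activin, 11.12 and 11.10 with Nodal, against 9.85 and 10.01 in undifferentiated cells. Psme2 had 8.67 and 8.83 with Activin, 8.76 and 8.77 with Nodal, against 8.14 and 8.25 in undifferentiated cells. Every treated array was above every undifferentiated one for both genes. Psme1 rose by 1.36 after Activin (SE 0.0896, adjusted p 5.55e-07) and by 1.17 after Nodal (adjusted p 1.63e-06), which is 2.57-fold and 2.26-fold. Psme2 rose by 0.56 after Activin and by 0.57 after Nodal (SE 0.0923, adjusted p 0.000398 and 0.000319), which is 1.47-fold and 1.49-fold.

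The copy gene Psme2b had the largest rise of any member after Activin. Its levels were 9.75 and 9.87 with Activin, 9.35 and 9.28 with Nodal, against 8.26 and 8.03 in undifferentiated cells, with the groups in 3 separate steps. It rose by 1.66 after Activin (SE 0.103, adjusted p 3.52e-07) and by 1.17 after Nodal (adjusted p 4.56e-06). Psme2b is a near copy of the Psme2 coding sequence, so on this array the RNA of the 2 genes cannot be told apart with certainty, and the changes of their probes differed.

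**Figure D3:**
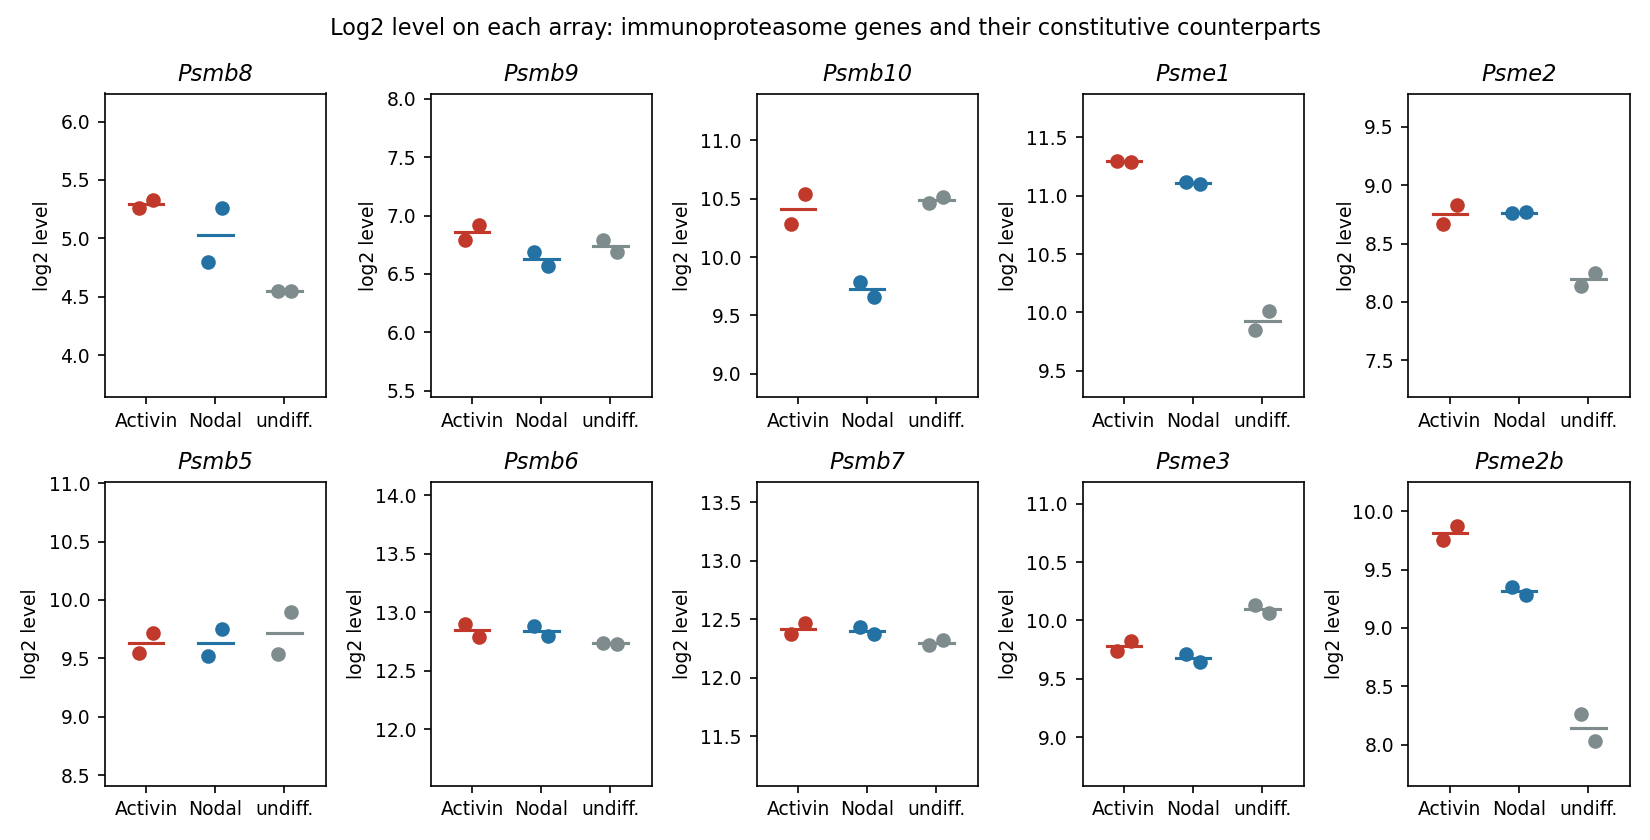
Normalized log2 level on each array (points) and group mean (lines) of the immunoproteasome genes (top row) and of the constitutive catalytic subunits, Psme3 and Psme2b (bottom row), in Activin-derived, Nodal-derived and undifferentiated cells; every panel spans the same number of log2 units. Psme1, Psme2 and Psme2b lie higher in both treated groups, Psmb10 lies lower after Nodal only, and Psmb5, Psmb6 and Psmb7 lie close together in all groups.

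The catalytic immunosubunits were not alike. Psmb8 was dim: its raw signals were 67.2 and 67.4 with Activin, 53.9 and 63.8 with Nodal, against 43.7 and 43.1 in undifferentiated cells. It was above background on both Activin arrays and on 1 Nodal array, replicate 2, and not well above background on either undifferentiated array. Its detection p-values were 0.0175 and 0.0188 on the Activin arrays and 0.0201 on that Nodal array. With a stricter detection limit of 0.01 it was therefore not tested. Its log2 levels were 5.26 and 5.33 with Activin, 4.80 and 5.26 with Nodal, against 4.55 on both arrays in undifferentiated cells. Against the detection limit it was at least 1.18-fold higher after Activin (adjusted p 0.000708), and after Nodal the test passed (adjusted p 0.00961) with no fold to give. That call was lost without Nodal replicate 2 (adjusted p 0.0807).

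Psmb9, the partner that replaces Psmb6, had levels of 6.79 and 6.92 with Activin, 6.69 and 6.57 with Nodal, against 6.79 and 6.69 in undifferentiated cells. Its arrays overlapped between treated and undifferentiated cells, and the changes were 0.11 after Activin (95% interval -0.10 to 0.33) and -0.11 after Nodal (-0.32 to 0.11). After Activin it passed with median scaling (0.33, adjusted p 0.0172) and without between-array normalization (0.43, adjusted p 0.00686).

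Psmb10, which replaces Psmb7, had levels of 10.28 and 10.54 with Activin, 9.79 and 9.66 with Nodal, against 10.46 and 10.51 in undifferentiated cells. The Activin arrays straddled the undifferentiated ones, whereas both Nodal arrays lay below all others. Its change was -0.76 after Nodal (SE 0.107, adjusted p 0.000126), a 1.69-fold lower level, and -0.08 after Activin (95% interval -0.32 to 0.16). The second Psmb10 probe gave -0.65 after Nodal and 0.03 after Activin.

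Each immunosubunit was also set against the constitutive subunit it replaces, as the change of one minus that of the other on the log2 scale. Psmb8 minus Psmb5 was 0.83 after Activin (adjusted p 0.000277) and 0.56 after Nodal (adjusted p 0.00318), values that depend on the level given to Psmb8 below background on the undifferentiated arrays and are no measure of size. Psmb9 minus Psmb6 was 0.00 after Activin (95% interval -0.22 to 0.23) and -0.21 after Nodal (-0.44 to 0.02), neither of which passed. Psmb10 minus Psmb7 was -0.20 after Activin (adjusted p 0.0696) and -0.87 after Nodal (adjusted p 1.59e-05). The first of these passed without Activin replicate 2 (-0.29, adjusted p 0.0327), and likewise without background correction or with an offset of 50. Psmb7 stands here for its brightest probe, which changed by 0.11 after Nodal. Its other probes changed by -0.04 and -0.37, so the size of the difference after Nodal depends on the probe.

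Between Nodal-derived and Activin-derived cells the proteasome genes differed little. Of the 39 tested members, 0 were higher and 2 lower in Nodal-derived cells in limma's test (0 and 4 at an unadjusted p under 0.05). The 2 were Psmb10 and Psme2b, where 2.88% of all genes passed (1.52% higher, 1.36% lower). The median member change was -0.03, and 16 members had arrays that did not overlap, against 45.6% of all genes. None of the 12 tested 20S genes or 15 tested 19S genes passed in limma at an adjusted p under 0.05, and 0 and 1 of them had an unadjusted p under 0.05. Their changes lay between -0.14 and 0.08 for 20S and between -0.42 and 0.05 for 19S.

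Psmb10 had levels of 9.79 and 9.66 after Nodal and 10.28 and 10.54 after Activin, so that both Nodal arrays were lower. The change was -0.68 (SE 0.107, adjusted p 0.012), a 1.60-fold lower level, and its second probe also gave -0.68 (adjusted p 0.0116). Psmb10 minus Psmb7 was -0.66 (adjusted p 0.00705). Psme2b had 9.35 and 9.28 after Nodal and 9.75 and 9.87 after Activin, so that both Nodal arrays were again lower, and the change was -0.50 (SE 0.103, adjusted p 0.0379). Both calls depended on single arrays: Psmb10 was lost without Nodal replicate 2 (adjusted p 0.0933) or Activin replicate 2 (0.0749), its difference to Psmb7 likewise (0.0594 and 0.0571), and Psme2b without any single Nodal or Activin array (adjusted p 0.0726 to 0.199). With no filter on dim probes they stood at adjusted p 0.0592 and 0.0996, and when a fold of at least 1.5 was required at adjusted p 1.

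For the other immunoproteasome genes the intervals were wide enough to allow differences either way or in 1 direction. For Psmb8 they allowed a difference larger than the one called for Psme2b. Nodal minus Activin was -0.19 for Psme1 (95% interval -0.39 to 0.01), 0.02 for Psme2 (-0.19 to 0.22), -0.22 for Psmb9 (-0.43 to -0.01) and -0.27 for Psmb8 (-0.57 to 0.04). None passed after adjustment over all genes. Psmd8 came nearest among the 19S genes, with levels of 8.00 and 8.09 after Nodal and 8.37 and 8.56 after Activin, a change of -0.42 and an adjusted p of 0.0757.

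**Figure D4:**
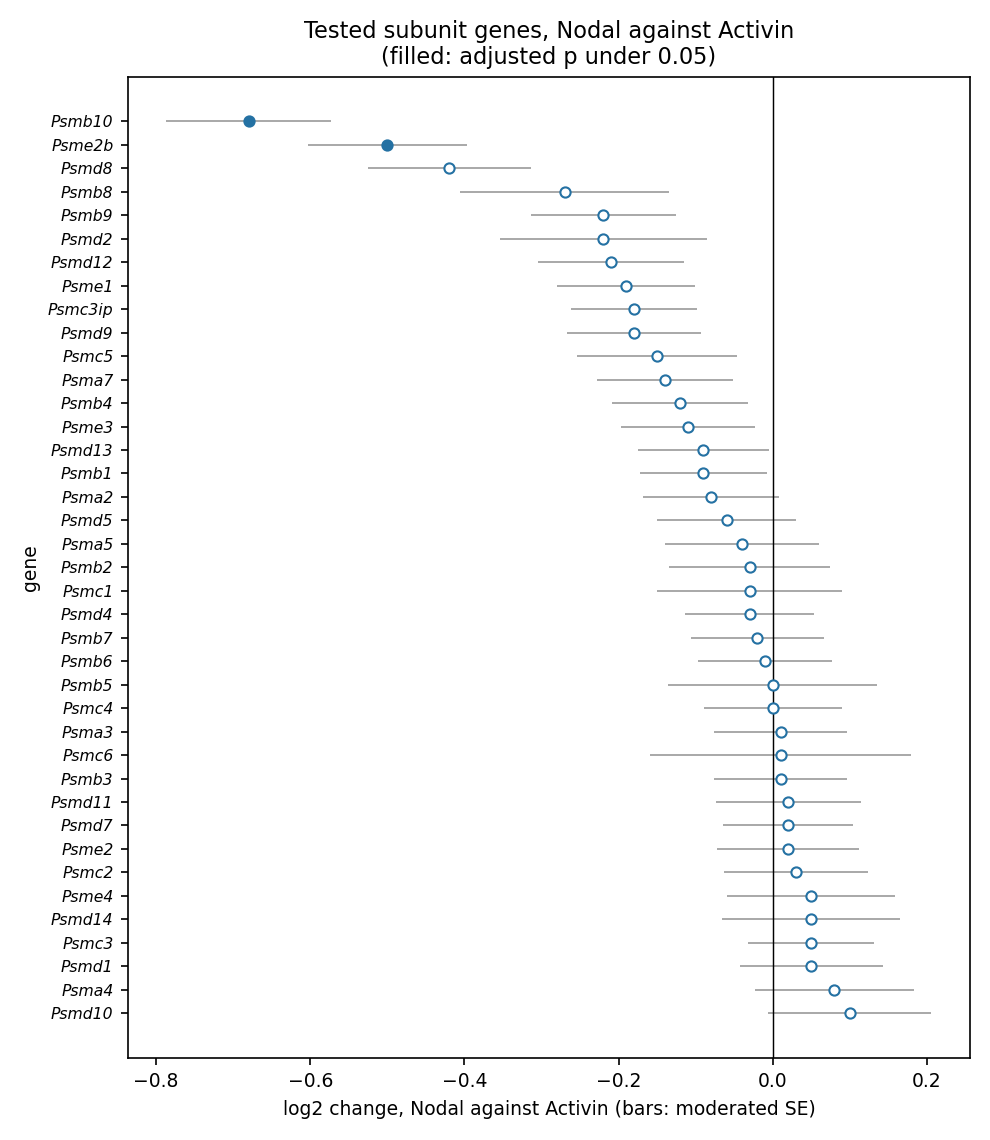
Log2 change of each tested member in Nodal-derived against Activin-derived cells (points; bars are the moderated standard error), sorted by change; filled points passed at an adjusted p under 0.05. Psmb10 (-0.68) and Psme2b (-0.50) are the filled points, and most others lie within 0.2 of 0.

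Several members had more than 1 probe, which gives a second reading within the same arrays. Among 13 such genes, the probes of Psme1, Psmb10, Psmd2, Psmd7, Psmd11 and Psmd12 gave the same call in both comparisons with undifferentiated cells. The second Psme1 probe rose by 1.40 after Activin and 1.03 after Nodal. For the others the probes differed. The second probe of Psmc5 had changes of -0.15 after Activin and -0.18 after Nodal that did not pass, so its lower call rested on the brighter probe. A second Psmb2 probe was higher after Activin (0.27), another Psmb7 probe lower after Nodal (-0.37), and the dimmer probe of Psmd9 lower in both (-0.37 after Activin, -0.39 after Nodal). The dim second probe of Psme4 was lower after Activin (-0.70), against 0.12 for the bright one. Psma7 and Psmd10 each had another probe that was lower after Nodal (-0.24 and -0.36).

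**Figure D5:**
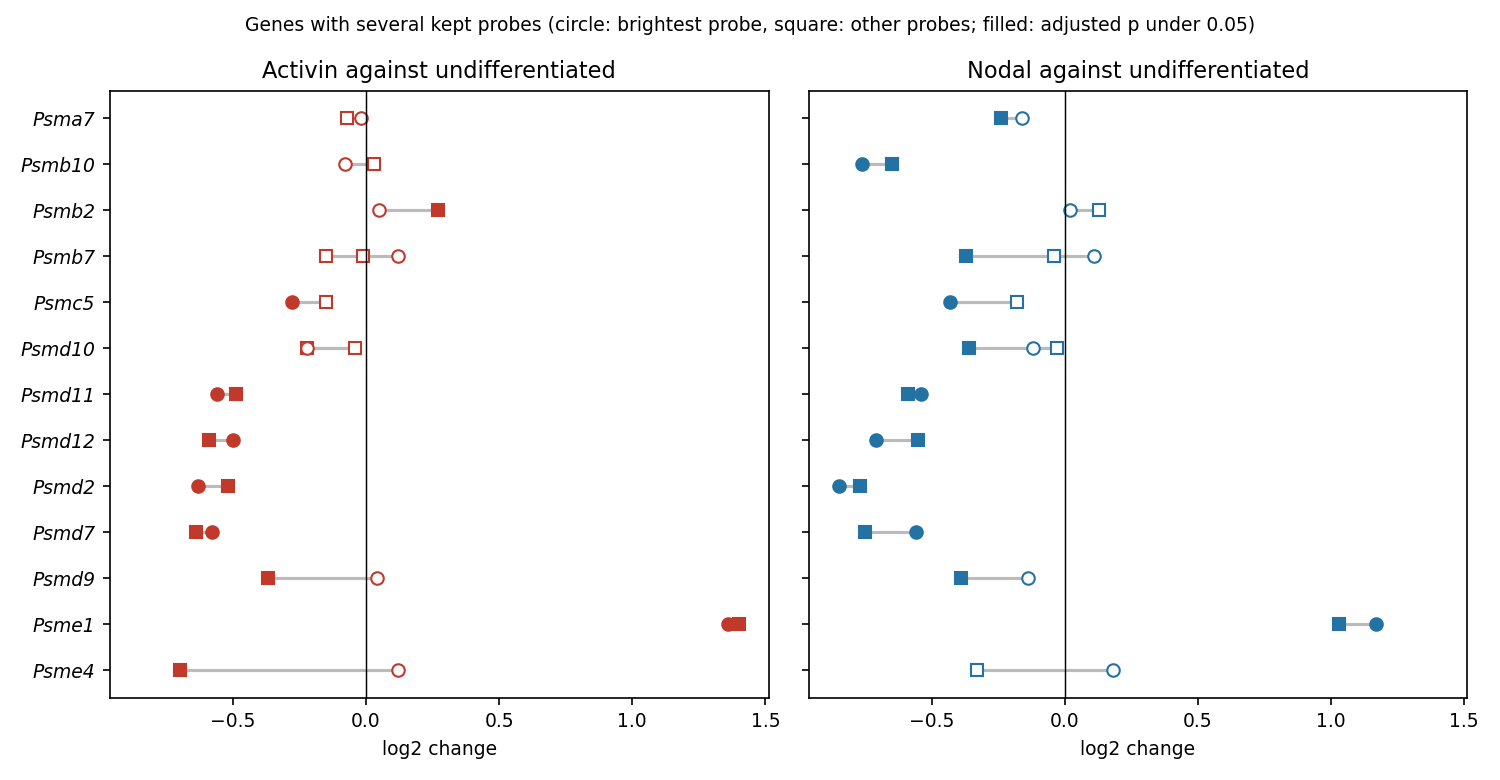
Log2 change of every kept probe of the 13 members with more than 1 probe, in Activin-derived (left) and Nodal-derived cells (right) against undifferentiated cells; circles are the brightest probe of the gene, squares its other probes, and filled symbols passed at an adjusted p under 0.05. The probes of Psme1 lie together on the far right and those of Psmd2, Psmd7, Psmd11 and Psmd12 together on the left, while those of Psme4 and Psmb7 lie on opposite sides of 0.

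Proteins that work with the proteasome were examined as lists. Of 11 tested proteasome-associated genes, 2 were higher and 7 lower after Activin, and 2 higher and 6 lower after Nodal. Over all genes 37.2% were lower after Activin and 37.4% after Nodal. The ubiquitin shuttle Rad23b fell by 0.59 after Activin and by 0.68 after Nodal. Adrm1, a ubiquitin receptor of 19S, fell by 0.61 after Activin and by 0.77 after Nodal. Ecpas, an adaptor and scaffold of the proteasome, rose by 0.65 after Activin and by 0.78 after Nodal. Sem1, a small 19S subunit whose symbol does not start with Psm and which was chosen after its values were seen, rose by 0.56 after Activin and by 0.60 after Nodal.

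Of 9 tested regulators of proteasome genes, 3 were higher and 5 lower after Activin, and 3 higher and 4 lower after Nodal. Of all genes, 36.5% were higher after Activin and 36.8% after Nodal, near the share in this short list. Nfe2l2, which is known to drive subunit genes under oxidative stress, fell by 0.75 after Activin and 1.02 after Nodal. Nfe2l1, named after its values were seen, rose by 0.32 after Activin (adjusted p 0.0176 in limma's test). Its levels were 10.75 and 10.84 with Activin, 10.75 and 10.70 with Nodal, against 10.60 and 10.36 in undifferentiated cells. Nfyb, a subunit of the factor that binds the CCAAT box, fell by 0.93 after Activin and by 1.02 after Nodal. Among the small Maf partners, Maff rose by 0.96 after Activin and by 0.68 after Nodal, and Mafg rose by 0.92 after Activin and by 0.80 after Nodal. Between Nodal-derived and Activin-derived cells, 0 of the associated genes and 0 of the regulators passed in limma at an adjusted p under 0.05, and 1 and 2 had an unadjusted p under 0.05.

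In the ubiquitin list, 7 of 19 tested genes were higher and 1 lower after Activin, and 6 higher and 1 lower after Nodal. Of all genes, 36.5% were higher and 37.2% lower after Activin and 36.8% higher and 37.4% lower after Nodal, so the share of higher genes is near that over all genes. The conjugating enzyme Ube2d2a rose by 0.74 after Activin and by 0.78 after Nodal. The ligase scaffold Cul4a rose by 0.69 after Activin and by 0.68 after Nodal, whereas its relative Cul4b fell by 0.47 after Activin and by 0.35 after Nodal. Ube2n, another conjugating enzyme, rose by 0.41 after Activin and by 0.44 after Nodal. The remaining genes of the list, among them Uba1 and Vcp, mostly had small changes that did not pass.

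Genes of MHC class I and peptide loading, the pathway that uses immunoproteasome products, were mostly higher. Of 10 tested, 8 were higher and 2 lower in each comparison, where 36.5% of all genes were higher after Activin and 36.8% after Nodal. The peptide transporter subunit Tap2 had levels of 7.34 and 7.65 with Activin, 6.98 and 6.89 with Nodal, against 5.12 and 5.35 in undifferentiated cells, and rose by 2.27 after Activin and by 1.70 after Nodal. Every treated array lay above the undifferentiated ones. Tap1, its partner, was not well above background on the undifferentiated arrays and was at least 1.60-fold higher after Activin and 1.43-fold after Nodal. Tap1 met the detection filter only through treated arrays, so its place among the higher genes was partly set by the filter. H2-Q7, a class I heavy chain, rose by 1.42 after Activin and by 1.02 after Nodal. Its raw signals in undifferentiated cells were near background (73.18 and 54.25), with 1 array detected, so the size of this rise is uncertain. Of the loading factors, Tapbpl rose by 1.23 after Activin and by 1.06 after Nodal, and Tapbp rose by 0.93 after Activin and by 1.09 after Nodal. B2m, the light chain of class I molecules, rose by 0.94 after Activin and by 0.93 after Nodal. The genes that fell were the chaperone Calr, which fell by 0.31 after Activin and by 0.50 after Nodal, and the heavy chain H2-K1, which fell by 0.27 after Activin and by 0.35 after Nodal. H2-K1 was dim on all arrays, with raw signals of 60.97 to 72.97.

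Of 23 tested interferon response genes, 14 were higher and 3 lower after Activin, and 13 higher and 4 lower after Nodal, where 36.5% of all genes were higher after Activin and 36.8% after Nodal. Ifitm3, a membrane protein that is also a marker of germ cell precursors, fell by 1.66 after Activin and by 1.66 after Nodal. Also lower were Ifitm2, which fell by 0.69 after Activin and by 0.70 after Nodal, and the interferon-gamma receptor gene Ifngr2, which fell by 0.65 after Activin and by 0.62 after Nodal. The other chain of that receptor, Ifngr1, rose by 1.14 after Activin. Its levels were 6.68 and 7.01 with Activin, 6.59 and 6.66 with Nodal, against 5.65 and 5.77 in undifferentiated cells. The genes with lower levels, and Ifngr1, were named after their values were seen. Gbp2, an interferon-induced GTPase, and Usp18, which removes Isg15 from proteins, were not well above background on the undifferentiated arrays. Gbp2 was at least 18.4-fold higher after Activin and 13.7-fold after Nodal, and Usp18 at least 17.8-fold after Activin and 23.6-fold after Nodal. Igtp, another GTPase, was also undetected there and was at least 4.27-fold higher after Activin and 3.01-fold after Nodal. Gbp2, Usp18, Igtp and Ifi35 met the detection filter only through treated arrays. The count of higher genes in this list was thus partly set by the filter. The transcription factor Irf2 rose by 2.38 after Activin and by 2.45 after Nodal. Between Nodal-derived and Activin-derived cells, 4 of the list were lower after Nodal, as was Tap2 (-0.56, adjusted p 0.049) in the class I list. These were Igtp (-0.50), Irf1 (-0.47), Ifitm1 (-0.46) and Gbp2 (-0.43), and 0 were higher in limma's test (1 at an unadjusted p under 0.05). Over all genes, 1.36% were lower and 1.52% higher in that comparison.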

How the data were processed

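Per the file headers, the deposited values were an intensity and a detection p-value for each of 25697 probes on 6 arrays, neither normalized nor background-subtracted. Per the labels' protocols, biotinylated cRNA was made from total RNA; the sources used here do not give the array model or scanner software. The authors' deposited averages of replicates were not used.

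Signals were corrected with the normexp model from detection p-values (offset 16), log2-transformed and quantile-normalized, as limma's neqc does (limma 3.58.1, R 4.3.3). Probes with a detection p-value under 0.05 on at least 2 arrays were kept (14050), and each gene's brightest kept probe was tested (10222 genes). One linear model covered all 6 arrays with 3 contrasts (eBayes, two-sided, Benjamini-Hochberg). Differences between an immunosubunit and its constitutive counterpart came from a second fit with 3 such features added. A bound ("at least") divides the higher group's mean by the detection limit where no array of the lower group detected the probe. The fit was tested on simulated data.

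Members, gene lists and the naming rule were chosen with earlier results of these data known. Every member is accounted for. Array values are given for the immunoproteasome genes, their counterparts, the other activators, and the 4 largest rises and falls that passed per contrast; of each related list, up to 4 passing genes with the largest change. Some genes that this rule names are not reported here. The number of arrays limits the precision. Motifs were searched in RefSeq promoter windows (GRCm38.p6).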

Additional observations from a re-analysis of the deposited data

How the results depend on the processing

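Of 813 repeats of tests on single named genes, run under each alternative but the one with every probe, 0 turned a call round, 778 kept their side of the threshold, 32 lost the call and 3 gained it, 17 of the losses when a fold of at least 1.5 was required. Under that demand 3458 genes passed after Activin and 3539 after Nodal against undifferentiated cells. Among them were 3 members in each (Psme1, Psme2b and the chaperone Psmd5), with Psme1 the 1 immunoproteasome gene, and 0 of the 19S or 20S genes. Between Nodal and Activin 8 genes passed, with 0 subunits and 0 immunoproteasome genes. The differences Psmb8 minus Psmb5 (0.83 after Activin, 0.56 after Nodal) and Psmb10 minus Psmb7 (-0.66, Nodal against Activin) then lost their call. Without between-array normalization, 14 members and 6 lower 19S genes passed after Activin, and 1 20S gene in each comparison with undifferentiated cells, as with median scaling. The count of 20S genes after Nodal was 4 with an offset of 50, with every probe and with the mean of probes. Between Nodal and Activin, 471 genes passed without background correction and 468 with an offset of 50, both with 1 lower 19S gene. Without a filter 116 genes, 0 subunits and 0 immunoproteasome genes passed, and with every probe 2 immunoproteasome probes did. Psmb10 minus Psmb7 after Activin (-0.20) passed without background correction and with an offset of 50. The cause of these changes was not tested. Psmb8 had no repeat with the stricter detection limit of 0.01, which it did not meet.

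Leaving out 1 array at a time gave 0 to 3 passing 20S genes after Activin and 0 to 2 after Nodal. Between Nodal and Activin it gave 82 to 242 genes, 0 to 2 members and 0 to 1 immunoproteasome genes. Psmb10 minus Psmb7 ranged from -0.29 to -0.12 after Activin and from -0.75 to -0.59 between Nodal and Activin. A group left with 1 array is assumed to vary like the others. After normalization, the deviations of arrays with the same replicate number were little correlated (0.102, 0.00404 and 0.0253). Quantile normalization evens out effects on a whole array, so this check does not cover them. In the raw signal, replicate 1 had the higher upper quartile in every group. With replicate number as a block, 1 lower 19S gene passed between Nodal and Activin. With 2 arrays a group and probes near background, such as Psmb8, small changes were not detectable.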
